A study of Mus musculus with 8 samples.

Results

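The genes described here build or control motile cilia, the beating cell extensions that move fluid and mucus along airways. They were chosen by name: 39 gene symbols of the multiciliated cell and of the axoneme, the microtubule core of the cilium, were looked up in the platform annotation of an Illumina mouse bead array. Of these symbols 27 had at least 1 probe, 40 probes in all, against 16593 genes on the whole array. After a filter on dim probes, 25 motile cilia genes could be tested among 10298 genes.

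The RNA came from whole lungs of mouse embryos at E18.5, late gestation, in 4 groups. Wild-type control embryos were c57Bl6/J on control chow, and mRID control embryos carried SMRTmRID on the c57Bl6/J background with the same chow. Wild-type PTU and mRID PTU embryos came from mothers that ate 0.15% PTU for 2 days from E16.5. SMRT is a corepressor that nuclear receptors recruit, mRID stands for its mutated receptor interaction domain, and PTU blocks thyroid hormone synthesis. Each group was 1 RNA sample measured on 2 arrays, called A and B, which the labels name technical replicates. The sources used here do not give the number of embryos or litters behind an RNA sample, nor whether mutants were homozygous. Every p-value and interval below therefore covers the error between arrays and no variation between embryos, apart from a last fit over the 4 RNA samples. Each comparison sets 1 RNA sample against another.

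Multiciliated cells of the airway switch on a shared programme led by the transcription factor FOXJ1 together with RFX factors. The programme supplies dynein arms, which are the motors, radial spokes and the central pair, which coordinate them, and intraflagellar transport, which carries parts to the growing tip. In the mouse these cells differentiate in the conducting airways late in gestation, beside the secretory cells that share their progenitors. The series is titled after type I pneumocytes, the flat cells of gas exchange, and the question put here was whether the ciliated lineage of the airway moved along with other epithelial genes.

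Most of the motile cilia genes on the array were measurable in lung at this age. A probe counted as detected at a detection p under 0.05, and 22 of the 27 genes had a probe detected on all 8 arrays. Dnah5, a heavy chain of the outer dynein arm, was detected on 3 of 8 arrays and never on both arrays of a group, and the central pair gene Spag17 was detected on 0 arrays, so neither was tested. Spag16, another central pair gene, entered the tests through the wild-type control group alone and was detected on 5 arrays. Rfx3 and Ccdc40 were each detected on 7 arrays. No probe carried the symbols Dnah9, Dnaic2, Dnai1, Dnai2, Tekt2, Tekt4, Rsph4a, Spag6, Spef2, Lrrc23, Meig1 or Fam183b. In the RefSeq gene table Dnai1 and Dnai2 are synonyms of Dnaic1 and Dnaic2, so 37 distinct genes were sought and 10 had no probe under a listed symbol.

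The arrays had mean signals of 293.7 to 376.1 and detected 54.7% to 58.8% of probes. Over the genes tested, Pearson correlation was 0.997 within an RNA sample and between 0.989 and 0.994 across RNA samples. Lung markers were present: the lung epithelial factor Nkx2-1, surfactant gene Sftpc and club cell gene Scgb1a1 were detected on all 8 arrays. They do not show that the 4 RNA samples were alike in tissue content. The squamous keratin gene Krt4 gave 7.94 and 8.03 on wild-type control arrays and 4.36 and 4.58 on wild-type PTU arrays. Krt13, another, gave 7.81 and 7.75 against 4.23 and 4.29. The part of tissue content in the differences below was not tested. Of 10 markers of brain ependyma, choroid plexus and germ cells with a probe, tissues that also hold axonemes, Ttr and Nes passed the dim-probe filter. In bulk lung RNA, fewer ciliated cells and less RNA per ciliated cell cannot be told apart.

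Many promoters of the motile cilia genes held the same short core, which the choice by name did not use, and the sequences below show it. Other cilium genes held it too. The core GTTGCC, part of the X-box bound by RFX factors, was searched on both strands in the RefSeq promoters of assembly GRCm38.p6, from 250 bases before to 50 after the gene start. Of 23 promoters of 21 tested motile cilia genes, 14 (60.9%) held the core, against 12.5% of all 32851 promoters. The share was 35.3% of 34 promoters of other axoneme and multiciliated cell genes, 44.1% of 34 of intraflagellar transport and primary cilium genes, 2 of 5 of dynein arm assembly factors, 22.2% of 18 of multiciliation regulators, and 0 of 10 of airway secretory genes. The fuller inverted repeat, GTTNCC and GGNAAC separated by 0 to 3 bases, whose arms can overlap the core, was present in 1 motile cilia promoter (4.3%) and in 0.8% of all promoters. The forkhead core TGTTTAC was present in 2 (8.7%), those of Mlf1 and Sntn, against 3.6% of all. Foxj1, Riiad1, Rsph1 and Tppp3 had no entry in the table. A match describes the letters and does not show that a factor binds. Windows of 60 bases upstream of the start are printed for 10 of the genes that held the core there and whose values are given below, 5′ to 3′ on the gene's strand, with the core in capitals on whichever strand it lies.
Hydin, chr8:110266917-110266976, plus strand: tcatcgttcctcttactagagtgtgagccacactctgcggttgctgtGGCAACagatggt
Ccdc113, chr8:95534040-95534099, plus strand: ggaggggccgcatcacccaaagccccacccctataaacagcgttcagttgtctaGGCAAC
1110017D15Rik, chr4:41507765-41507824, minus strand: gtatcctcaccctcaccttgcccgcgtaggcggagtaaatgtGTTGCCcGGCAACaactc
Dynlrb2, chr8:116504937-116504996, plus strand: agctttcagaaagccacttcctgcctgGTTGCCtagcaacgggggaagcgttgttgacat
Tekt1, chr11:72361883-72361942, minus strand: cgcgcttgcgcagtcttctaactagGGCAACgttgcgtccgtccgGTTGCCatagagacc
Mlf1, chr3:67373965-67374024, plus strand: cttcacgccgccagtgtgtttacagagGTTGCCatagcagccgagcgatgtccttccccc
Enkur, chr2:21205367-21205426, minus strand: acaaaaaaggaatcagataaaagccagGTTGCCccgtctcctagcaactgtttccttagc
Rfx2, chr17:56831092-56831151, minus strand: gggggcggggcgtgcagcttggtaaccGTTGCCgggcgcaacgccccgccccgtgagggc
Cdhr3, chr12:33092876-33092935, minus strand: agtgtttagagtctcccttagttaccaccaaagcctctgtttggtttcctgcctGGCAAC
Sntn, chr14:13670783-13670842, plus strand: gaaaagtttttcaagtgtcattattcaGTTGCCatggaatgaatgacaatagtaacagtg

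Across the 4 RNA samples the motile cilia genes varied about as much as the median gene tested. Values are normalized log2 signals, and a step of 1 is a 2-fold change. The group means of a motile cilia gene spanned 0.07 (Dnah11) to 0.44 (1110017D15Rik), with a median span of 0.24, beside 0.25 for all genes tested and a highest span of 4.25 among them. The spread between the arrays of a group had a median standard deviation of 0.09 for the motile cilia genes and 0.10 for all genes. To pass the test a gene needed a limma adjusted p under 0.05 together with a size of 1.5-fold or more, which is 0.585 on the log2 scale. In none of the 4 comparisons of 2 groups, nor in the genotype by diet term, did any of the 25 pass.

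**Figure D1:**
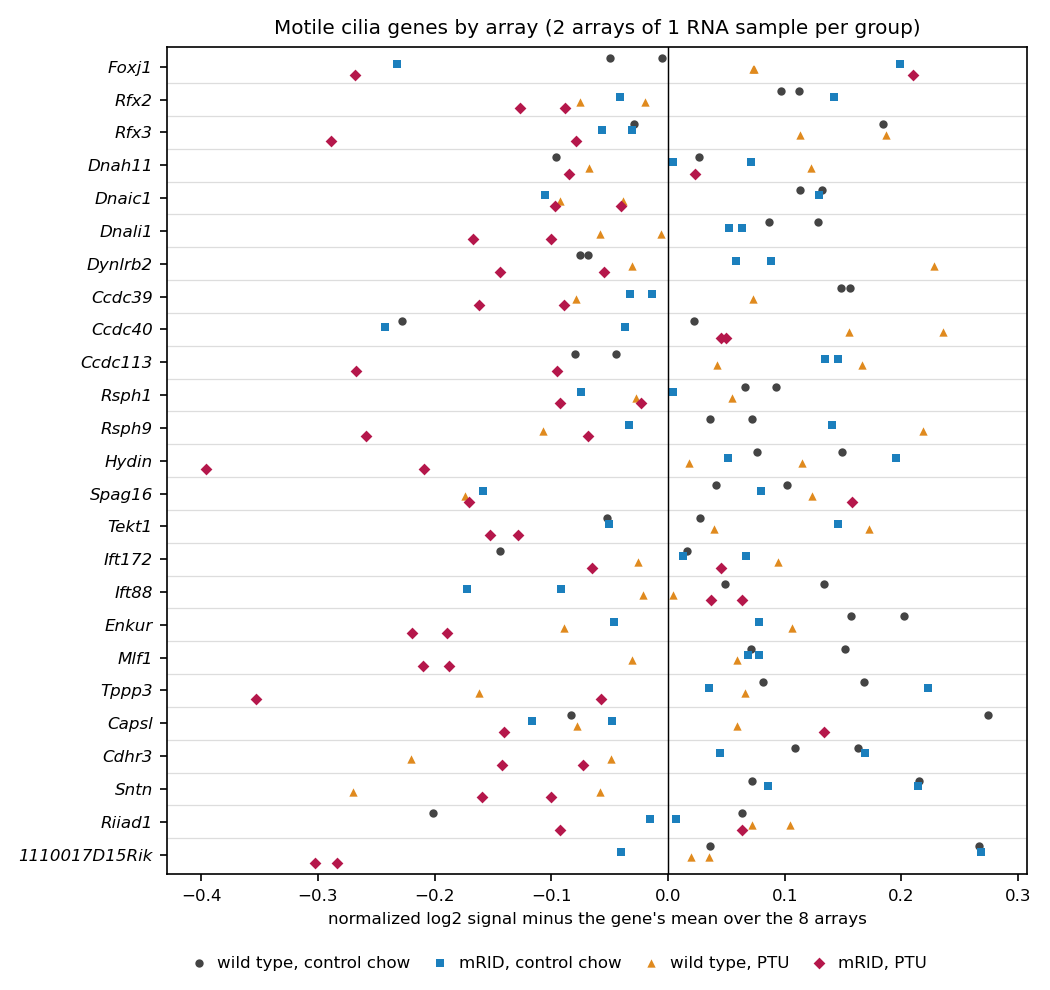
Each point is 1 array: the horizontal axis is the normalized log2 signal of a motile cilia gene minus its mean over the 8 arrays, with 1 gene per line and colour and shape marking the group. The mRID PTU arrays lie left of 0 for most genes, and the spans of the group means are at most 0.44.

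On control chow, the mRID RNA did not differ from the wild-type RNA in any motile cilia gene beyond the test. Here 0 of 25 passed, where 1.59% of all genes did, so the count alone is no result about these genes; at an unadjusted limma p under 0.05 the number was 1 (Ift88) and 20.1% of all genes, and at an adjusted p under 0.05 of any size it was 0 and 4.85%. The sizes say more: the differences ran from -0.22 to 0.20 with a median of -0.04, beside 0.01 for all genes. All 25 intervals at 95% lay within 1.5-fold, the widest reaching 1.38-fold. Without mRID control array A the median was 0.03, the other side of 0.

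The master regulator showed little movement. Foxj1 gave 5.22 and 5.26 in wild-type controls, 5.47 and 5.04 in mRID controls, 5.34 and 5.34 on wild-type PTU, and 5.48 and 5.0 on mRID PTU. Its arrays A and B differed more within both mRID groups than the group means did, and all 4 groups overlapped except the 2 wild-type ones. The genotype difference on control chow was 0.01 (SE 0.16, 95% interval -0.35 to 0.37). Its signal was low, so the array limits what can be seen. Rfx2, an RFX factor of ciliated cells, differed by -0.05 (SE 0.09), and Rfx3, which acts in the same programme, by -0.12 (SE 0.10).

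On control chow the largest differences, those of Ift88 and Ccdc113, had opposite signs. Ift88, an intraflagellar transport gene, gave 7.80 and 7.88 in wild type and 7.66 and 7.58 in mRID, so that the arrays did not overlap. Its difference was -0.22 (SE 0.08, adjusted p 0.169). Ccdc113, which encodes a coiled-coil protein of the cilium, went the other way, with 8.0 and 8.04 in wild type and 8.23 and 8.21 in mRID, a difference of 0.20. Next in size among the 25 genes were Capsl (-0.18), Ccdc39 (-0.18) and Enkur (-0.16), all lower in mRID. The light chain gene Dynlrb2, whose product is part of dynein, differed by 0.14. Over the 25 genes, arrays did not overlap for 2 that were higher in mRID and 6 that were lower, or 8% and 24%, where all genes gave 26% and 23.8%.

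PTU in wild type left every motile cilia gene within the threshold as well. The count was 0 of 25, against 3.52% of all genes, with 3 at an unadjusted limma p under 0.05 (26.6% of all genes) and 0 at an adjusted p under 0.05 of any size (11.8% of all genes). Arrays did not overlap for 12 genes that were lower with PTU and 6 that were higher (48% and 24%), where all genes gave 25.4% and 30.5%. Differences ran from -0.31 to 0.30 with a median of -0.10, beside 0.02 for all genes, and all 25 intervals lay within 1.5-fold, reaching at most 1.45-fold. Sntn, the gene for sentan, a protein of the ciliary tip, had the lowest value. It gave 6.66 and 6.51 on wild-type control and 6.17 and 6.38 on wild-type PTU arrays, which did not overlap, a difference of -0.31 (SE 0.10, adjusted p 0.078).

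Ccdc40, a partner of Ccdc39 in setting the repeat length of the axoneme, had the highest difference for PTU in wild type, 0.30 (SE 0.11, adjusted p 0.103). Its signals were 4.62 and 4.87 on wild-type control and 5.0 and 5.08 on wild-type PTU arrays. Ccdc39 itself lay at -0.16, so the partners had opposite signs in that comparison. Cdhr3, a cadherin gene of ciliated cells, differed by -0.27, Dnaic1, an intermediate chain of the outer dynein arm, by -0.19, and Dynlrb2 by 0.17. Without wild-type PTU array B the median over the genes was -0.02.

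Of the remaining genes, some lay near 0 under PTU in wild type and others did not. Arrays did not overlap for Tppp3 (-0.17), Enkur (-0.17), Ccdc113 (0.17), Riiad1 (0.16), Rfx2 (-0.15), 1110017D15Rik (-0.12), Tekt1 (0.12) and Mlf1 (-0.10). For 1110017D15Rik the nearest arrays were at 9.1973 on control and 9.1969 on PTU. Nor did they overlap for Rsph1, Ift88 and Foxj1, whose differences follow. Of all genes, 25.4% were lower and 30.5% higher without overlap. Rsph9, of the radial spoke, was at 0.00 and Rsph1, also of the spoke, at -0.07. Dnah11, an outer arm heavy chain, gave 5.24 and 5.36 on control against 5.46 and 5.26 on PTU arrays, which overlapped, a difference of 0.06. Dnali1, an inner arm light chain, was at 7.89 and 7.85 against 7.71 and 7.76, which did not overlap, a difference of -0.14. The transport genes Ift172 and Ift88 had values of 0.10 and -0.10, and Foxj1 of 0.10.

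Motile cilia genes were most often lowest in the mRID PTU group. It had the lowest mean for 16 of the 25 genes (64%), where it was lowest for 31.6% of all genes, and the highest mean for 0. Differences from mRID control were negative in 21 of 25, with a median of -0.16 and a range of -0.43 to 0.19, beside -0.02 and 54.9% negative for all genes. Still 0 of 25 passed, against 3.32% of all genes. At an unadjusted limma p under 0.05 there were 9, or 25.5% of all genes, and 1, Hydin, had an adjusted p under 0.05 at a size below 1.5-fold, where 10.4% of all genes did. Intervals lay within 1.5-fold for 22 genes, the exceptions being Hydin, Tppp3 and 1110017D15Rik, and the widest reached 1.58-fold.

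Hydin, which encodes a giant protein of the central pair, carried the largest difference. Its signals were 6.13 and 6.06 on wild-type control, 6.17 and 6.03 on mRID control, 6.09 and 6.0 on wild-type PTU, and 5.77 and 5.58 on mRID PTU arrays. The mRID PTU arrays lay below the other 6. The PTU difference in mRID was -0.43 (SE 0.10, 95% interval -0.64 to -0.21, adjusted p 0.0217), a 1.34-fold change. This adjusted p ranged from 0.0132 to 0.14 over the alternatives. It was over 0.05 without mRID PTU array B (0.14), without mRID control array A (0.122) and with median scaling (0.0753).

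The open reading frame 1110017D15Rik came next, with 9.20 and 9.43 on wild-type control, 9.12 and 9.43 on mRID control, 9.20 and 9.18 on wild-type PTU, and 8.86 and 8.88 on mRID PTU arrays. Again the mRID PTU arrays were below all others, by -0.41 from mRID control (SE 0.12, adjusted p 0.0502). Mlf1, a gene of multiciliated cells, gave 9.35 and 9.36 on mRID control against 9.09 and 9.07 on mRID PTU, a difference of -0.27 (adjusted p 0.0669). Tppp3, of a tubulin-binding family, differed by -0.33, Ccdc113 by -0.32, Sntn by -0.28 and Enkur by -0.22. Foxj1 (-0.01), Rsph1 (-0.02) and Ift172 (-0.05) stayed near 0, and Ccdc40 and Ift88 had positive values of 0.19 and 0.18. Arrays of these groups did not overlap for 15 genes that were lower with PTU (60%) and 2 that were higher (8%), where all genes gave 30.8% and 24.2%.

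The same tilt was present when the genotypes were compared under PTU, a comparison that shares the mRID PTU arrays with the previous one. Differences were negative in 20 of 25 genes, with a median of -0.10 and a range of -0.37 to 0.06, beside -0.04 and 57.8% negative for all genes. None of the 25 passed, against 4.17% of all genes, and 7 had an unadjusted limma p under 0.05 (27% of all genes). Hydin was again the 1 gene with an adjusted p under 0.05 at any size (12.7% of all genes), at -0.37 (adjusted p 0.0338, from 0.026 to 0.192 over the alternatives). It was over 0.05 without mRID PTU array B (0.192), without wild-type PTU array A (0.174) or B (0.0826) and with median scaling (0.0634). Rfx3 differed by -0.33 (adjusted p 0.0624), on a dim probe detected on 1 of the 2 mRID PTU arrays. It gave 4.91 and 4.99 on wild-type PTU and 4.72 and 4.51 on mRID PTU arrays. The other Rfx3 probes did not pass the dim-probe filter. The difference was -0.32 for 1110017D15Rik, -0.29 for Ccdc113 and -0.25 for Tekt1, which encodes a filament protein of ciliary microtubules. At the other end stood Ift88 at 0.06, Sntn at 0.03 and Cdhr3 at 0.03, and Dnaic1 was at -0.003. Arrays did not overlap for 13 genes lower in mRID (52%) and 1 higher (4%), where all genes gave 33.9% and 23.6%. Apart from that of Hydin, the intervals of the other 24 genes lay within 1.5-fold.

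**Figure D2:**
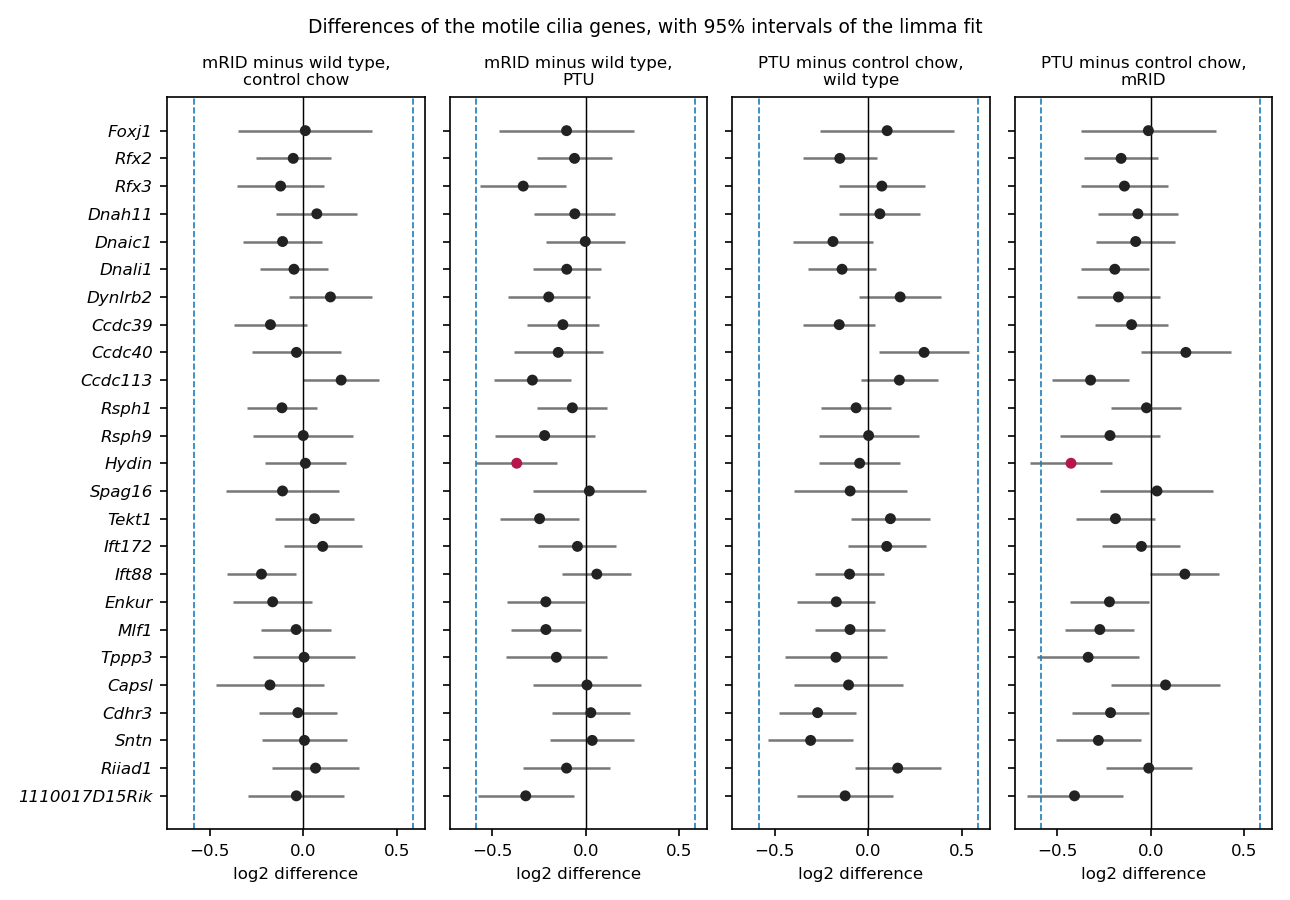
Log2 differences (horizontal axis) of the 25 motile cilia genes in the 4 comparisons of 2 groups, with 95% intervals as bars; dashed lines mark 1.5-fold and red points an adjusted p under 0.05. All points lie between the dashed lines, and the points of the last panel lie mostly left of 0.

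The genotype by diet term subtracts the PTU difference of wild type from that of mRID. It passed for 0 of 25 genes and for 9.44% of all genes. At an unadjusted limma p under 0.05 there were 5 (31.5% of all genes), and 1 had an adjusted p under 0.05 at any size, where 15.7% of all genes did. The median was -0.11, beside -0.04 for all genes, and 17 of 25 terms (68%) were negative, where 55.9% of all genes were. Ccdc113 had the largest, -0.49 (SE 0.13, 95% interval -0.78 to -0.20, adjusted p 0.03), and its adjusted p stayed under 0.05 in 10 of 17 alternatives, ranging from 0.00724 to 0.104. It was over 0.05 with median scaling and without any 1 of both wild-type control arrays (0.0798 and 0.0617), both mRID control arrays (0.0713 and 0.0693), wild-type PTU array B (0.104) or mRID PTU array B (0.0946). Ccdc113 was at 8.12 and 8.25 on wild-type PTU and at 7.99 and 7.81 on mRID PTU arrays, so that PTU went with a difference of 0.17 in wild type and of -0.32 in mRID. Hydin had a term of -0.38, Dynlrb2 of -0.34, Tekt1 of -0.31 and Ift88 of 0.28. The term is the least precise comparison: intervals lay within 1.5-fold for 17 genes and reached up to 1.71-fold.

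Seen by array, the tilt was small and present on both mRID PTU arrays, which measured the same RNA sample. The mean deviation of the 25 genes from their own means was -0.105 and -0.11 on mRID PTU arrays A and B, and between 0.01 and 0.08 on the other 6. On the mRID PTU arrays 4 and 6 of the 25 genes were above their own mean, and 14 to 21 on the others. No value over all genes is given for this measure. All genes also leaned that way: 54.9% were lower in mRID PTU than in mRID control, and 57.8% lower than in wild-type PTU.

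Genes with several probes gave a second reading of the same RNA samples. In all, 7 motile cilia genes had 16 kept probes. All probes of a gene had the same sign in 7 of 7 for PTU in mRID and in 6 of 7 for genotype with PTU. The number was 4 of 7 for genotype on control chow and 5 of 7 for PTU in wild type. For the genotype by diet term it was 4 of 7, with Cdhr3, Dnaic1 and Mlf1 the exceptions. No share over all genes with several probes is given. The 3 probes of 1110017D15Rik differed by -0.41, -0.32 and -0.36 for PTU in mRID, and the probes of Mlf1 by -0.27 and -0.28. Cdhr3 was the gene whose probes disagreed most: the brighter one differed by 0.03 for genotype with PTU and the dimmer one by -0.43. On the dimmer Cdhr3 probe, low in signal but detected on all 8 arrays, the genotype by diet term was -0.68 in a fit of all kept probes (adjusted p 0.0189), while the brighter one gave 0.06.

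**Figure D3:**
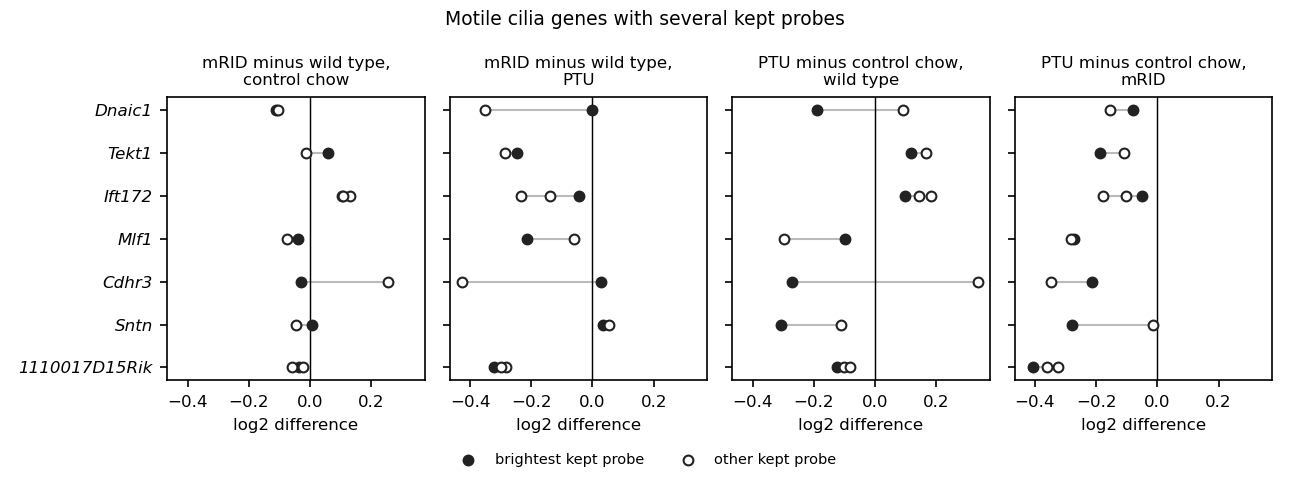
Log2 differences (horizontal axis) of every kept probe of the 7 motile cilia genes with more than 1, by comparison; filled points are the brightest probe, which stands for the gene elsewhere, and open points the others. In the last panel all probes lie left of 0, while the Cdhr3 probes fall on opposite sides of 0 in the first 3 panels.

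Spag6l, a central pair gene for which the RefSeq table lists Spag6 as a synonym, was looked at after its values were seen and is no member by symbol. It gave 7.84 and 7.75 on mRID control and 7.18 and 7.47 on mRID PTU arrays, a difference of -0.47 (SE 0.12, adjusted p 0.0292) that was below 1.5-fold. The arrays did not overlap, where 30.8% of all genes were lower without overlap. An adjusted p under 0.05 at any size was reached by 10.4% of all genes in that comparison. Spag6l had 2 kept probes, each detected on all 8 arrays. The values are those of the brighter probe, and none are given for the other.

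Further cilium genes also had small differences between groups. Of all genes, 1.59% passed for genotype on control chow and 4.17% for genotype with PTU. The shares were 3.52% for PTU in wild type, 3.32% for PTU in mRID and 9.44% for the genotype by diet term. A list of other axoneme and multiciliated cell genes (38 tested) had 0 passing in each comparison of 2 groups, with medians of -0.01 for genotype on control chow, -0.12 for genotype with PTU, -0.05 for PTU in wild type and -0.13 for PTU in mRID. Dynein arm assembly factors (8 tested) had medians of 0.04, -0.15, 0.06 and -0.15 in the same order with 0 passing. Regulators of multiciliation and centriole amplification (17 tested) had 0 passing, with medians of 0.04, -0.12, 0.09 and -0.06. Intraflagellar transport and primary cilium genes (36 tested) had medians of 0.05, -0.11, 0.08 and -0.07, and 1 passed, Bbs12, a chaperonin-like Bardet-Biedl gene, which fell by 0.66 for genotype with PTU (adjusted p 0.0252). The genotype by diet term was -0.59 for Lrrc46 and -0.68 for Ift81, a transport gene (limma adjusted p 0.034 and 0.00336). Each was the 1 gene of its list that passed below 0 for that term. These values are differences between PTU differences and not falls from one group to another. Both genes had a higher group mean with PTU in wild type and a lower one with PTU in mRID.

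Airway secretory genes, from the neighbouring lineage, moved in the same RNA samples. For PTU in wild type 9 of 12 tested secretory genes passed as lower and 0 as higher, where 3.52% of all genes passed. All 12 differences were negative, with a median of -0.82. Of the motile cilia genes 0 of 25 passed, with 15 of 25 negative and a median of -0.10. Scgb1a1, the club cell secretoglobin, gave 14.14 and 14.15 on wild-type control and 13.10 and 13.15 on wild-type PTU arrays and fell by 1.02 (SE 0.08). Scgb3a1 fell by 4.25, Reg3g by 3.13 and Pon1, a lactonase, by 1.16. For genotype on control chow 3 of 12 secretory genes passed, all as lower, where 1.59% of all genes passed. The secretory median was -0.37 with 11 of 12 negative, against -0.04 for motile cilia with 15 of 25 negative.

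The secretory and ciliary lists had medians of opposite sign for genotype with PTU and for the genotype by diet term, and of the same sign in the other 3 comparisons. For PTU in mRID the medians were -0.11 for the secretory list and -0.16 for motile cilia. There 1 of 12 secretory genes passed as higher and 2 as lower, where 3.32% of all genes passed. The secretory list was at 0.20 for genotype with PTU. There Sec14l3 (1.21), Retnla (0.85) and Scgb1a1 (0.62) passed as higher, 3 of 12 genes, where 4.17% of all genes passed. The motile cilia list was at -0.10 with 0 passing. For the genotype by diet term the medians were 0.74, with 8 of 12 passing as higher, and -0.11. For that term 9.44% of all genes passed. Whether the lists differ from each other was not tested, and the members of both were named with results of these data known.

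Of the other epithelial lists, 6 of the 7 tested basal and squamous markers were detected on 2 to 6 of 8 arrays, with their highest group mean in wild-type controls. Their passing the filter depended on that group in part, so no count over that list is given. Krt15, a basal keratin and the 1 gene of that list detected on all 8 arrays, differed by -1.08 for genotype on control chow (adjusted p 0.000594), by -0.08 for genotype with PTU, by -0.68 for PTU in wild type (adjusted p 0.00466) and by 0.32 for PTU in mRID (adjusted p 0.122). Type I pneumocyte markers had medians of -0.23, 0.21, -0.36 and 0.11 for genotype on control chow, genotype with PTU, PTU in wild type and PTU in mRID, of 13 tested. Of these, 2 passed as higher and 1 as lower for genotype with PTU, where 4.17% of all genes passed. For PTU in wild type 1 passed as higher and 3 as lower (3.52% of all genes). For PTU in mRID 1 passed as lower (3.32% of all genes). Igfbp2 was the gene rising for PTU in wild type (0.76) and falling for PTU in mRID (-0.80). Type II markers (16 tested) had medians of 0.07, -0.07, 0.04 and -0.05 in the same order, with Chil1 rising by 0.84 for PTU in wild type and the surfactant gene Sftpb falling for PTU in mRID (-0.65). General epithelial markers (12 tested) had medians of 0.07, -0.04, 0.06 and -0.08, with Sox9 rising by 0.77 for PTU in wild type, and no others of these lists passed in a comparison of 2 groups. Neuroendocrine markers, the remaining airway lineage, had 3 tested genes and 0 passing. Ttr, on the list for other tissues with axonemes, was detected on 3 of 8 arrays, with signals of 5.67 and 5.54 on mRID PTU arrays and from 4.28 to 4.77 on the others. It entered the tests through the group where it was high, so no difference is given, and its part in the motile cilia values was not tested.

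**Figure D4:**
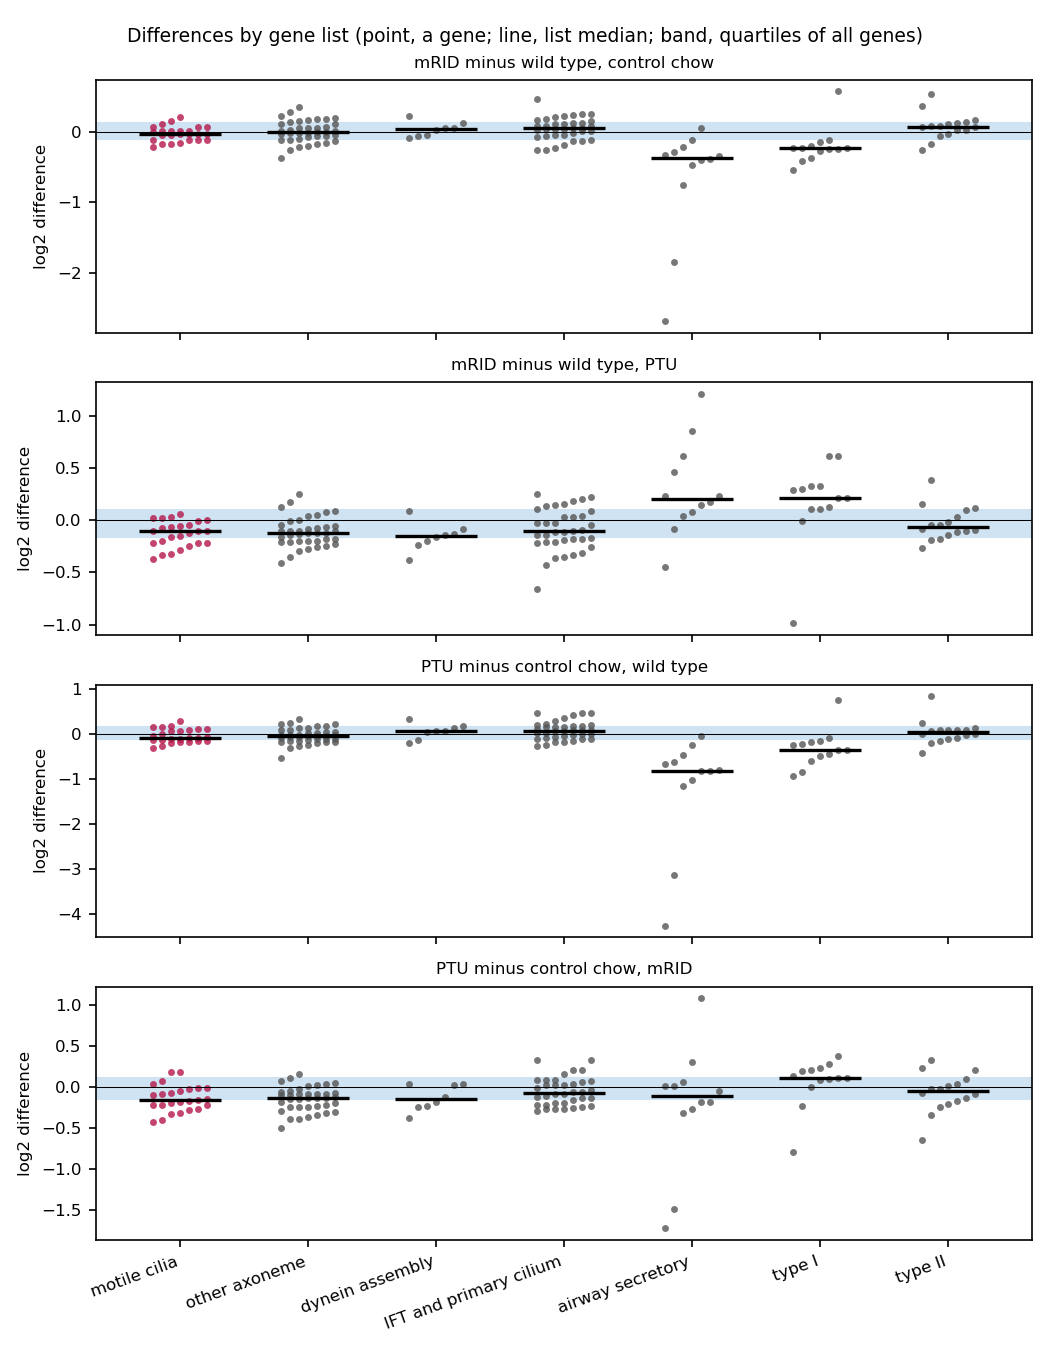
Log2 differences (vertical axis, a scale of its own in each panel) of single genes, grouped by list, for the 4 comparisons; lines are list medians and the band spans the quartiles of all genes tested. The motile cilia points stay within 0.43 of 0 in every panel, while secretory genes reach -4.25 for PTU in wild type.

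With the arrays of each RNA sample averaged and genotype and diet fitted as additive terms over the 4 RNA samples, 0 of 25 motile cilia genes passed for either term, and 0% of all genes did. At an unadjusted limma p under 0.05 the numbers were 0 and 0, against 2.42% and 3.24% of all genes. The genotype term was negative in 22 of 25 genes with a median of -0.08 (-0.01 for all genes), and the diet term in 20 of 25 with a median of -0.08 (-0.001 for all genes). No share of negative terms over all genes is given. Both terms draw on the mRID PTU sample, so they are not separate readings. The model had 1 residual degree of freedom, and its error lay between RNA samples. With 1 RNA sample per group, that error cannot be told apart from a genotype by diet term.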

How the data were processed

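Lung RNA of 4 groups was measured on 8 arrays, 2 per RNA sample. Per the labels' protocols, Trizol extraction was followed by column clean-up with DNase, and RNA was amplified to biotin-labelled cRNA; GenomeStudio is named in the submitters' processing notes, and no version is stated there. The first deposited table holds average signal intensity per probe and array, not normalized between arrays, and a detection p-value, per the file headers. Another deposited table, also intensity, is on a linear scale with column medians of 52.3 to 52.4, so normalization by the authors was inferred from the values; no source used here names its method.

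Signals were background-corrected from the detection p-values and quantile normalized (neqc, offset 16, limma 3.58.1, R 4.3.3), which shrinks dim differences. Probes had to reach a detection p under 0.05 on both arrays of some group (14965 of 25697 did), and the brightest such probe stood for its gene. Gene symbols were those of the platform annotation (23978 probes with 1 symbol). Group means over the 8 arrays were compared with lmFit and eBayes (4 residual and 6.44 prior degrees of freedom), with Benjamini-Hochberg adjustment over 10298 genes. The number of arrays limits the precision. The fit of all kept probes and the count at any size were added after the data were seen. The procedure was tested on simulated data. Signal columns were matched to groups by name, since they bear letters in place of replicate numbers.

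The genes named are all members by symbol, and from each other list up to 6 genes that passed. Nkx2-1, Sftpc and Scgb1a1 were named to check the tissue. Nes was named because a count was small, and Spag6l after its values were seen. Members and lists were chosen with earlier results of these data known. In total 17 alternatives were run: median scaling, no background correction, an offset of 50, the submitters' value table without and with a replicate block, no filter, detection on all 8 arrays, a detection p of 0.01, the mean of a gene's probes, and each array left out.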

Additional observations from a re-analysis of the deposited data

Results flagged for a closer look

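Ccdc113 had a genotype by diet term of -0.49 with an adjusted p of 0.03 in the limma fit, a test of the difference between the PTU differences of the 2 genotypes. The dimmer of the Cdhr3 probes had a genotype by diet term of -0.68 in the fit of all kept probes (adjusted p 0.0189), which the brighter Cdhr3 probe, at 0.06, did not share.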

How the results depend on the processing

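The number of motile cilia genes that passed was 0 in each of the 5 comparisons under all 17 alternatives, and 0 to 0 with each array left out. Of 2100 values of single motile cilia genes under alternatives, 1927 moved by less than the spread between arrays, 173 moved by more, and 0 gained or lost a pass. Counts at an adjusted p under 0.05 of any size did change: 2 motile cilia genes in some comparison as reported, 0 with median scaling or without mRID PTU array B, and 7 without background correction. The largest difference between 2 groups was 0.43 as reported and 0.56 at most, without mRID control array A. The array error limits what can be seen. With SEs near 0.10 between 2 groups, single changes under about 0.2 mostly had intervals that included 0. After adjustment the limit was higher. For PTU in mRID 1110017D15Rik, at -0.41, had a limma adjusted p of 0.0502. The smallest difference between 2 groups with an adjusted p under 0.05 was Hydin, at -0.37 for genotype with PTU. For the genotype by diet term SEs were near 0.14. Variation between embryos is not covered.

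With each array left out, the median over the motile cilia genes ranged from -0.08 to 0.03 for genotype on control chow, from -0.13 to -0.10 for genotype with PTU, from -0.10 to -0.02 for PTU in wild type, from -0.19 to -0.13 for PTU in mRID and from -0.14 to -0.07 for the genotype by diet term. Under other processing this median was -0.11 with median scaling (20 of 25 negative) and -0.01 for genes detected on all 8 arrays, against -0.04, for genotype on control chow. It was -0.05 with the mean of probes and -0.06 without background correction, against -0.10, for PTU in wild type. For the genotype by diet term it was -0.06 without background correction or with an offset of 50, and -0.07 with median scaling or in the value table, against -0.11. The counts of all genes passing ranged from 146 to 171, 426 to 474, 360 to 412, 336 to 367 and 922 to 1019 in that order. As reported they were 164, 429, 363, 342 and 972. They were 82, 224, 213, 168 and 553 without background correction and 82, 236, 219, 169 and 573 with an offset of 50. In the submitters' value table they were 94 for genotype on control chow and 218 for PTU in mRID. Median scaling moved the median of all genes by at most 0.08 and, for genotype on control chow, gave 171 lower and 26 higher genes, against 119 and 45 as reported.

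The replicate numbers mark technical arrays, and deviations of same-numbered arrays correlated at -0.09 to 0.12 between groups, so the numbers do not pair the samples. With the replicate block in the value table, 94 and 218 genes passed, as without it, and 0 motile cilia genes.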
